A study of Homo sapiens with 12 samples.

Results

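The genes described here are 55 genes of DNA replication and deoxynucleotide synthesis in SKBR3 cells, a human breast cancer line with amplified HER2 (ERBB2). They are a list of gene symbols grouped by known function, and all 55 symbols were found among the 22170 genes of the table. All 55 also passed the filter on low values, which left 14179 genes to be tested. The study asked how 2 drugs, given alone or together, change messenger RNA in these cells. In the combination group cells received 5 µM GSK126 for 7 days and 100 nM lapatinib for the last 24 h. The lapatinib group received vehicle and then 100 nM lapatinib for the same 24 h, the GSK126 group received 5 µM GSK126 for 7 days and vehicle in place of lapatinib, and the DMSO group received vehicle throughout. Lapatinib is an inhibitor of the EGFR and HER2 kinases, and GSK126 is an inhibitor of EZH2, the enzyme that methylates lysine 27 of histone H3. Every group was split on day -3, seeded at 350000 cells per 6 cm dish on day -1 and harvested on day 1, and each was measured in 3 libraries of 75 bp reads. All 4 groups come from the same line, and since no label states that replicate libraries stem from separate cultures, the p-values reflect the spread of these libraries alone, which may be technical.

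Replication starts at origins that are licensed in G1 phase, when the origin recognition complex, CDC6 and CDT1 load the ring-shaped MCM2 to MCM7 complex onto DNA. In S phase CDC45 and the GINS complex join MCM to form the helicase that opens the fork, polymerase alpha with primase starts each strand, and polymerases epsilon and delta extend it with the help of the PCNA clamp. Ribonucleotide reductase, thymidylate synthase and the salvage enzyme thymidine kinase supply the deoxynucleotides, and many of these genes are transcribed around the passage from G1 into S phase, where E2F factors act on their promoters.

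The values are normalized read counts, that is, reads per gene corrected for the size of the library, and a change is a log2 difference of group means on the log2(value + 1) scale ± SE from limma. Depth was 18.0 to 30.5 M reads per library, lowest in combination library 1, which also had reads in more genes (21669) than the others (15059 to 17338). Proportions of the spike-in transcripts correlated at r = 0.993 to 0.996 among GSK126 libraries 2 and 3 and combination library 1, called the second spike-in composition below. Leaving GSK126 library 1 aside, the other 8 libraries correlated at 0.987 to 0.998 among themselves and at 0.976 to 0.992 with these 3. GSK126 library 1 correlated at 0.979 to 0.988 with the 8 and at 0.964 to 0.965 with the 3. The ranges overlap in part, so the split is not a clean one. Of 6 markers of luminal epithelium and the HER2 amplicon, 6 were detected, with summed counts of 529073 to 740850 (combination), 846235 to 893373 (lapatinib), 525893 to 903737 (GSK126) and 664854 to 841749 (DMSO). The sums hide unlike members. With lapatinib the means of ERBB2 (297566, against 154286 with DMSO) and GRB7 (41530.5, against 14865.5) were higher. The mean of EPCAM was lower (4792, against 8081), and the lapatinib and DMSO values of KRT8, KRT18 and KRT19 overlapped. The nuclear RNA MALAT1 made up 1.05% to 4.29% of all reads on genes, namely 2.34% to 4.29% with both drugs, 2.18% to 2.67% with lapatinib, 1.05% to 4.04% with GSK126 (4.04% in GSK126 library 1) and 1.29% to 2.09% with DMSO. Its part in the results was not tested.

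Lapatinib lowered nearly all of the 55 genes within a day. The list was chosen with earlier results of these data known, so it does not stand for the whole replication programme. Of 61 other genes of the same pathways, described below, 37 fell and 0 rose with lapatinib, with a median of -0.76. Of the 55 genes, 52 fell and 0 rose against DMSO at an adjusted p under 0.05, where 14.3% of all tested genes fell and 13.7% rose. The median change was -1.79, against 0.04 over all tested genes, and single changes ran from -4.26 for CLSPN to 0.06 for ORC2. A fall of at least 2-fold was called for 46 of the 55 (6.78% of all tested genes), and 19 of the 46 were at least 4-fold and 6 at least 8-fold lower. The share of all tested genes past these larger folds was not counted, and it cannot exceed 6.78%. The genes took 0.201% to 0.211% of the gene reads in the lapatinib libraries, against 0.605% to 0.658% in the DMSO libraries. These are bulk samples, so fewer cells in S phase and less of these RNAs per cell cannot be told apart.

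The 3 genes that did not pass the test were ORC2, ORC3 and RFC1. With an unadjusted p under 0.05 there were 53 of the 55, against 5639 of the 14179 tested genes. On the recovered reads edgeR and DESeq2 each called the same number lower as limma, 52, and 0 higher. Scaling to the spike-ins shifted the median of all genes by -0.53 and scaling to total counts by 0.17. A scaling moves all genes alike, so the median of the 55 relative to all genes (-1.83) is the same under each by construction. Spike-in scaling left 40 calls, and leaving out any of the 12 libraries left 50 to 53.

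**Figure D1:**
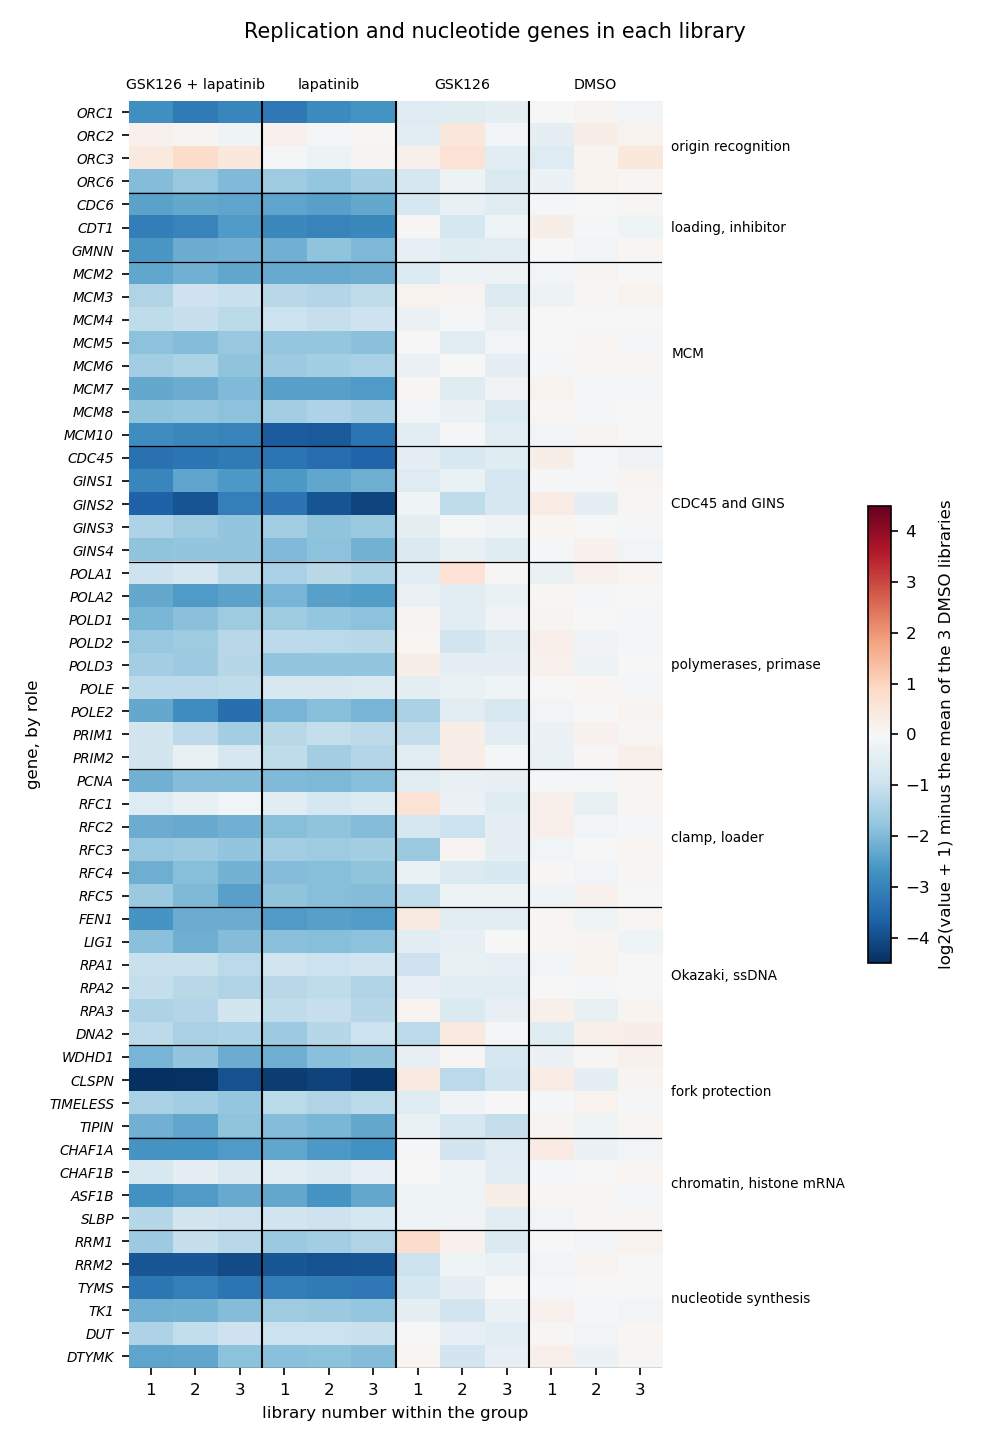
Each row is 1 of the 55 genes, grouped by role, and each column is 1 of the 12 libraries, with combination, lapatinib, GSK126 and DMSO libraries from left to right. Colour gives the log2 difference of the gene in that library from its mean in the DMSO libraries, and the lapatinib and combination columns are low for all but a few genes, ORC2 and ORC3 among them.

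Origin recognition split into genes that fell and genes that did not. ORC1 and ORC6 fell, and ORC2 and ORC3 did not pass the test. ORC1, the ATPase subunit whose level in human cells varies through the cell cycle, had normalized read counts of 134, 100.3 and 120.5 in the combination libraries, 98.9, 127 and 145 in the lapatinib libraries, 618, 636 and 683 in the GSK126 libraries and 934, 1014 and 842 in the DMSO libraries. Its lapatinib libraries all lay below its DMSO libraries, with a change of -2.92 ± 0.18, adjusted p = 3.67e-07. ORC2, a core subunit, had 592, 563 and 457 in the combination libraries, 589, 501 and 533 in the lapatinib libraries, 373, 732 and 476 in the GSK126 libraries and 380.0, 634 and 575 in the DMSO libraries, so that all 4 groups overlapped (0.06 ± 0.25, adjusted p = 0.881 for lapatinib against DMSO). ORC3, which binds ORC2 in the complex, had 309, 406 and 314 in the combination libraries, 213, 192 and 244 in the lapatinib libraries, 264, 354 and 160.0 in the GSK126 libraries and 149.5, 245 and 316 in the DMSO libraries. Its lapatinib values lay within the range of its DMSO values (-0.07 ± 0.30, adjusted p = 0.886), and its combination values lay higher than its lapatinib values without passing the test (0.66 ± 0.30, adjusted p = 0.176). ORC6, the smallest subunit, had a change of -1.62 ± 0.18, adjusted p = 3.45e-05 with lapatinib.

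The 3 genes of MCM loading all fell with lapatinib, with a median of -2.37. CDC6, the ATPase that joins the origin recognition complex to load MCM, had 2263, 2434 and 2296 in the combination libraries, 2332, 2221 and 2411 in the lapatinib libraries, 7181, 9610.4 and 8179.9 in the GSK126 libraries and 11409, 12181 and 12536 in the DMSO libraries. The lapatinib and combination values of CDC6 lay close together and far below DMSO, at 19.3% of the DMSO mean with lapatinib (-2.37 ± 0.13, adjusted p = 1.28e-07). CDT1, which brings MCM to the origin, had 230.1, 216 and 229.9 in the lapatinib libraries, against 2078, 1631 and 1522 in the DMSO libraries (-2.93 ± 0.22, adjusted p = 1.46e-06). GMNN encodes geminin, the inhibitor of CDT1, and it fell with lapatinib too, by less (-2.00 ± 0.15, adjusted p = 1.63e-06).

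Every MCM gene fell with lapatinib, but by unequal amounts. The 6 genes of the MCM2 to MCM7 ring, whose products assemble in equal numbers, had changes of -2.26 ± 0.14 for MCM2, -1.24 ± 0.21 for MCM3, -0.98 ± 0.11 for MCM4, -1.79 ± 0.15 for MCM5, -1.54 ± 0.15 for MCM6 and -2.48 ± 0.16 for MCM7. MCM7 and MCM4 marked the ends of that range. MCM7 had 3370.4, 3537 and 4172 in the combination libraries, 3031, 3039.7 and 2814 in the lapatinib libraries, 17051, 11367 and 14694 in the GSK126 libraries and 18512, 15805 and 15410.5 in the DMSO libraries, with a lapatinib mean at 17.9% of the DMSO mean (adjusted p = 4.33e-07). MCM4 had 3519.7, 3820.5 and 3333 in the combination libraries, 3967, 3812 and 4039 in the lapatinib libraries, 6459.9, 7259.8 and 6224 in the GSK126 libraries and 7640.1, 7842 and 7840.2 in the DMSO libraries, with a lapatinib mean at 50.7% of the DMSO mean (adjusted p = 5.57e-05). For both genes the 2 groups with lapatinib were separate from the 2 groups without it.

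The other 4 ring genes were likewise separated by lapatinib. Such separation adds no support, since every ring gene was called lower with lapatinib on the same libraries. How many of all tested genes separate in this way was not counted. MCM2 had 559, 618 and 550.3 in the combination libraries, 575, 579 and 599.7 in the lapatinib libraries, 1808, 2415 and 2413 in the GSK126 libraries and 2559, 3054 and 2805 in the DMSO libraries. MCM3 had 993, 1326 and 1289 in the combination libraries, 1082, 1017 and 1143 in the lapatinib libraries, 2821, 2792 and 1655 in the GSK126 libraries and 2174, 2665 and 2878 in the DMSO libraries. Its GSK126 library 3 was the lowest value without lapatinib, still above every value with lapatinib. MCM5 had 779, 738 and 873 in the combination libraries, 852, 845 and 757 in the lapatinib libraries, 2877, 1971 and 2617 in the GSK126 libraries and 2858, 2974 and 2647 in the DMSO libraries, and MCM6 had 734, 819 and 615 in the combination libraries, 708, 752 and 787 in the lapatinib libraries, 1818, 2167 and 1650.3 in the GSK126 libraries and 2049, 2256 and 2244 in the DMSO libraries. In both genes the lowest library without lapatinib lay above the highest library with it.

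MCM10 and MCM8 are not part of the ring. MCM10, needed to activate the helicase, was among the genes that fell furthest (-3.60 ± 0.19, adjusted p = 1.09e-07). It had 131, 122 and 113 in the combination libraries, 68.5, 66.0 and 93.8 in the lapatinib libraries, 669, 893 and 653 in the GSK126 libraries and 846, 1003 and 920.0 in the DMSO libraries, and its combination libraries lay above its lapatinib libraries. MCM8, a paralogue known for a role in recombination repair with MCM9, had 503, 535 and 487 in the combination libraries, 604, 683 and 613 in the lapatinib libraries, 1614, 1473 and 1147 in the GSK126 libraries and 1904, 1658 and 1766 in the DMSO libraries, and fell with lapatinib (-1.49 ± 0.15, adjusted p = 1.44e-05).

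CDC45 and the 4 GINS genes, whose products turn the loaded ring into an active helicase, all fell with lapatinib, with a median of -2.37. CDC45 had 158, 165 and 180.2 in the combination libraries, 167, 150.1 and 131 in the lapatinib libraries, 1230.0, 1009 and 1122 in the GSK126 libraries and 1932, 1511 and 1471 in the DMSO libraries. Its lapatinib mean was 9.14% of its DMSO mean (-3.44 ± 0.16, adjusted p = 7.06e-08), and the GSK126 values lay between those 2 groups without overlap. The lack of overlap adds no support, since CDC45 was called for GSK126 against DMSO on the same libraries. GINS2 had 89.6, 75.2 and 132 in the combination libraries, 112, 75.6 and 62.9 in the lapatinib libraries, 999, 512 and 663 in the GSK126 libraries and 1427, 853 and 1181 in the DMSO libraries, a change of -3.78 ± 0.31, adjusted p = 2.52e-06 with lapatinib. GINS1 (-2.37 ± 0.18), GINS4 (-1.98 ± 0.18) and GINS3 (-1.68 ± 0.16), the other subunits of the same 4-part complex, fell by less.

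All 9 genes of polymerases and primase fell with lapatinib, by a median of -1.37. POLE, the catalytic subunit of the leading-strand polymerase epsilon, changed least (-0.71 ± 0.11, adjusted p = 0.000684), with 1228, 1225 and 1252 in the combination libraries, 1678, 1659 and 1746 in the lapatinib libraries, 2040.5, 2259 and 2395 in the GSK126 libraries and 2789.8, 2907 and 2608 in the DMSO libraries. Its combination libraries lay below its lapatinib libraries. POLE2, the accessory subunit of the same enzyme, had a change of -2.04 ± 0.29, adjusted p = 0.000255 and 84.2, 94.7 and 84.5 in the lapatinib libraries, against 333, 365 and 396 in the DMSO libraries.

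Polymerase alpha with primase lays down the primers. POLA2, its accessory subunit, changed by -2.34 ± 0.15 with lapatinib, and POLA1, its catalytic subunit, by -1.37 ± 0.25, with 482, 544 and 401 in the combination libraries, 334, 387 and 342 in the lapatinib libraries, 645, 1441 and 942 in the GSK126 libraries and 748, 1053 and 975 in the DMSO libraries. PRIM1, the catalytic subunit of primase, had 151, 116 and 89.6 in the combination libraries, 111, 125 and 116 in the lapatinib libraries, 124, 325 and 191 in the GSK126 libraries and 221, 306 and 279 in the DMSO libraries. PRIM2, the large subunit, had 153, 211 and 160.0 in the combination libraries, 120.4, 89.4 and 108 in the lapatinib libraries, 192, 334 and 255 in the GSK126 libraries and 219, 283 and 316 in the DMSO libraries. Both primase genes were low in counts and wide in the GSK126 group, where PRIM1 spanned more than a 2-fold range, and their falls with lapatinib were -1.18 ± 0.31, adjusted p = 0.0130 for PRIM1 and -1.35 ± 0.24, adjusted p = 0.00121 for PRIM2. Polymerase delta, which extends the lagging strand, was represented by POLD1, the catalytic subunit (-1.72 ± 0.17), POLD2 (-1.21 ± 0.21) and POLD3 (-1.77 ± 0.20).

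PCNA, the sliding clamp, and 4 of the 5 subunits of its loader fell with lapatinib. PCNA had 2401, 2792 and 2769 in the combination libraries, 2713, 2642 and 2828 in the lapatinib libraries, 7408, 8556 and 8287 in the GSK126 libraries and 10365, 10294 and 11401 in the DMSO libraries, at 25.5% of the DMSO mean with lapatinib (-1.97 ± 0.12, adjusted p = 3.44e-07). RFC2 had 1191, 1149 and 1243 in the combination libraries, 1489, 1599 and 1432 in the lapatinib libraries, 3311, 2873 and 4161 in the GSK126 libraries and 6561, 5103 and 5196 in the DMSO libraries (-1.89 ± 0.15, adjusted p = 2.62e-06). RFC4 had 492, 597 and 521 in the combination libraries, 586, 606 and 642 in the lapatinib libraries, 1846, 1480.2 and 1399 in the GSK126 libraries and 2358, 2094 and 2385 in the DMSO libraries (-1.90 ± 0.14, adjusted p = 1.46e-06). In these 3 genes every GSK126 library lay below every DMSO library and above every library with lapatinib. That order adds no support, since all 3 were called for GSK126 against DMSO on the same libraries. RFC5, not called there, had the same order, and the share of all tested genes with it was not counted. RFC1, the large subunit that is particular to the PCNA loader, had 546, 644 and 752 in the combination libraries, 571, 471 and 538 in the lapatinib libraries, 1271, 682 and 556 in the GSK126 libraries and 967, 644 and 873 in the DMSO libraries. Its lapatinib libraries lay below its DMSO libraries, but the change did not pass the test (-0.64 ± 0.27, adjusted p = 0.0930). RFC2 to RFC5 are shared with other clamp loaders, and RFC5 (-1.89 ± 0.25) and RFC3 (-1.57 ± 0.32) also fell.

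The 6 genes of Okazaki fragment processing and binding of unpaired DNA all fell with lapatinib, by a median of -1.27. FEN1, the nuclease that trims the flaps of Okazaki fragments, changed most, with 795, 855 and 821 in the lapatinib libraries, against 5028, 4118 and 4959 in the DMSO libraries (-2.51 ± 0.22, adjusted p = 4.99e-06). LIG1, the ligase that seals them, changed by -1.88 ± 0.15. The 3 subunits of RPA, which coats unpaired DNA, changed by less, -0.91 ± 0.17 for RPA1, -1.24 ± 0.13 for RPA2 and -1.16 ± 0.22 for RPA3. DNA2, a nuclease for long flaps, had 285, 231 and 235 in the combination libraries, 206, 263 and 328 in the lapatinib libraries, 277, 874 and 602 in the GSK126 libraries and 440.0, 748 and 794 in the DMSO libraries, with a GSK126 group that ran from its lapatinib range to above its DMSO values. Its fall with lapatinib (-1.29 ± 0.36, adjusted p = 0.0174) was lost without lapatinib library 1 (adjusted p = 0.0750), and also without DMSO library 2 or 3.

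All 4 fork protection genes fell with lapatinib, and CLSPN fell furthest of the 55. CLSPN encodes claspin, which carries the checkpoint signal from stalled forks to CHK1, and it had 190.4, 197 and 286 in the combination libraries, 224, 245 and 214 in the lapatinib libraries, 5943, 1882 and 2366 in the GSK126 libraries and 5477, 3218 and 4765 in the DMSO libraries. The lapatinib mean was 5.07% of the DMSO mean (-4.26 ± 0.35, adjusted p = 2.63e-06), while the GSK126 group ran from below all DMSO values to above them. TIMELESS had 1034, 941 and 1042 in the lapatinib libraries, against 2311, 2735 and 2263 in the DMSO libraries (-1.27 ± 0.16, adjusted p = 9.70e-05). Its partner TIPIN, which works with it to stabilise forks, had 62.2, 55.0 and 80.0 in the combination libraries, 71.5, 67.1 and 56.3 in the lapatinib libraries, 229, 169 and 133 in the GSK126 libraries and 309, 246 and 297 in the DMSO libraries (-2.11 ± 0.24, adjusted p = 4.17e-05). WDHD1, which ties polymerase alpha to the helicase, changed by -1.94 ± 0.24.

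The chromatin genes fell unevenly. CHAF1A and CHAF1B encode the large and middle subunits of CAF-1, which places histones on new DNA. CHAF1A had 485, 412 and 373 in the lapatinib libraries, against 3192, 2065 and 2229.6 in the DMSO libraries (-2.54 ± 0.22, adjusted p = 3.81e-06). CHAF1B had 809, 732 and 853 in the lapatinib libraries, against 1041, 1130.4 and 1179 in the DMSO libraries (-0.49 ± 0.15, adjusted p = 0.0330), and its fall was lost without lapatinib library 2 (adjusted p = 0.124) and without each of the other 5 libraries of this comparison. ASF1B, a histone chaperone, had 192, 217 and 259 in the combination libraries, 257, 200.1 and 253 in the lapatinib libraries, 1095, 1099.8 and 1503 in the GSK126 libraries and 1297, 1323 and 1177 in the DMSO libraries, and fell with lapatinib (-2.42 ± 0.18). SLBP, which binds the stem-loop of histone messenger RNA, changed by -0.87 ± 0.15.

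All 6 nucleotide genes fell with lapatinib, with the largest falls in RRM2 and TYMS. RRM2, the small subunit of ribonucleotide reductase, had 648, 646 and 580.2 in the combination libraries, 651, 615 and 631 in the lapatinib libraries, 4774, 8182 and 7641 in the GSK126 libraries and 8572, 10295 and 9519 in the DMSO libraries. Its lapatinib mean was 6.68% of its DMSO mean (-3.90 ± 0.18, adjusted p = 7.06e-08). RRM1, the large subunit, had 734, 1059.7 and 939.7 in the combination libraries, 709, 755 and 892 in the lapatinib libraries, 3892, 2560.0 and 1423 in the GSK126 libraries and 2210.0, 2077 and 2501 in the DMSO libraries (-1.53 ± 0.28, adjusted p = 0.00163). Within the GSK126 group RRM1 ran from below to above all DMSO values.

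TYMS, which makes thymidine monophosphate from the deoxyuridine form, had 492, 555 and 488 in the combination libraries, 547, 524 and 508 in the lapatinib libraries, 2709, 3617 and 4659 in the GSK126 libraries and 4605, 4844 and 4768 in the DMSO libraries (-3.17 ± 0.17, adjusted p = 1.28e-07). TK1, the thymidine kinase of the salvage route, had 4196, 4280.0 and 4858 in the combination libraries, 6227, 5939.9 and 5562 in the lapatinib libraries, 13714, 10329 and 15272 in the GSK126 libraries and 21452, 17739 and 17420.2 in the DMSO libraries (-1.67 ± 0.16, adjusted p = 9.46e-06). The lapatinib values of TYMS overlapped its combination values, while those of TK1 lay above all of its combination values. DTYMK, the kinase for thymidine monophosphate, changed by -1.89 ± 0.23 and DUT, which breaks down dUTP, by -0.98 ± 0.16.

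Some partners in a complex or step had close changes with lapatinib and others did not. Close values were those of RFC2 (-1.89 ± 0.15), RFC4 (-1.90 ± 0.14) and RFC5 (-1.89 ± 0.25), of POLD1 (-1.72 ± 0.17) and POLD3 (-1.77 ± 0.20), and of RPA2 (-1.24 ± 0.13) and RPA3 (-1.16 ± 0.22). These sets leave out RFC3 (-1.57 ± 0.32), RFC1 (-0.64 ± 0.27), POLD2 (-1.21 ± 0.21) and RPA1 (-0.91 ± 0.17) of the same complexes. The close sets and the pairs with unequal changes are given as a description only, with no test. Both were picked after their values were seen. The log2 ratio of RRM2 to RRM1 was -0.31 ± 0.19 in the lapatinib libraries, against 2.06 ± 0.21 in the DMSO libraries (SD, n = 3 each). For CLSPN to TIMELESS it was -2.14 ± 0.18 in the lapatinib libraries, against 0.85 ± 0.54 in the DMSO libraries, and for ORC1 to ORC2 -2.14 ± 0.37 in the lapatinib libraries, against 0.84 ± 0.40 in the DMSO libraries. The level of such a ratio depends on the lengths of the genes, so only its shift is compared. The shift between the lapatinib and DMSO means was -2.37 for RRM2 to RRM1, -2.99 for CLSPN to TIMELESS, -2.98 for ORC1 to ORC2 and -2.05 for CHAF1A to CHAF1B. It was -1.50 for MCM7 to MCM4, -1.33 for POLE2 to POLE and -0.93 for CDT1 to GMNN.

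**Figure D2:**
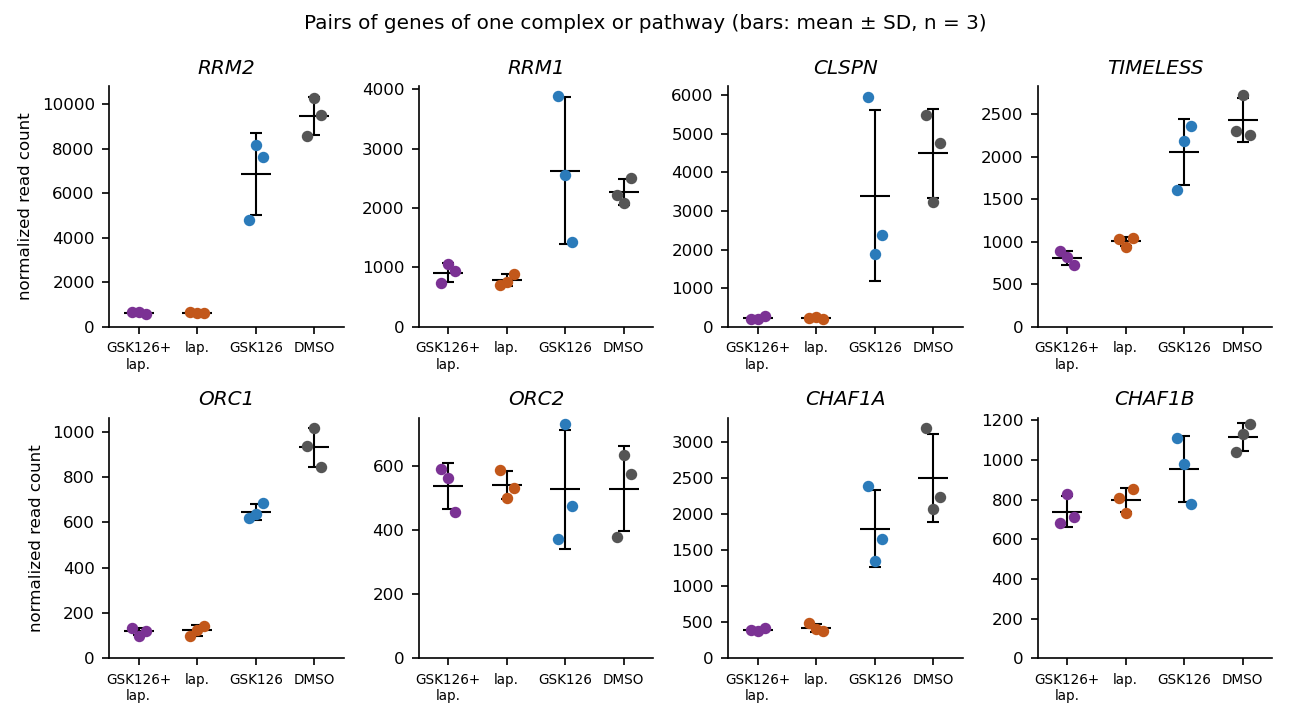
The panels plot normalized read counts on linear axes from 0 for RRM2 and RRM1, CLSPN and TIMELESS, ORC1 and ORC2, and CHAF1A and CHAF1B, with 1 point per library, bars at the group mean ± SD (n = 3), and the combination, lapatinib, GSK126 and DMSO groups from left to right. RRM2, CLSPN, ORC1 and CHAF1A lie far lower with lapatinib than without it, RRM1, TIMELESS and CHAF1B less so, and ORC2 overlaps in all 4 groups.

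**Figure D3:**
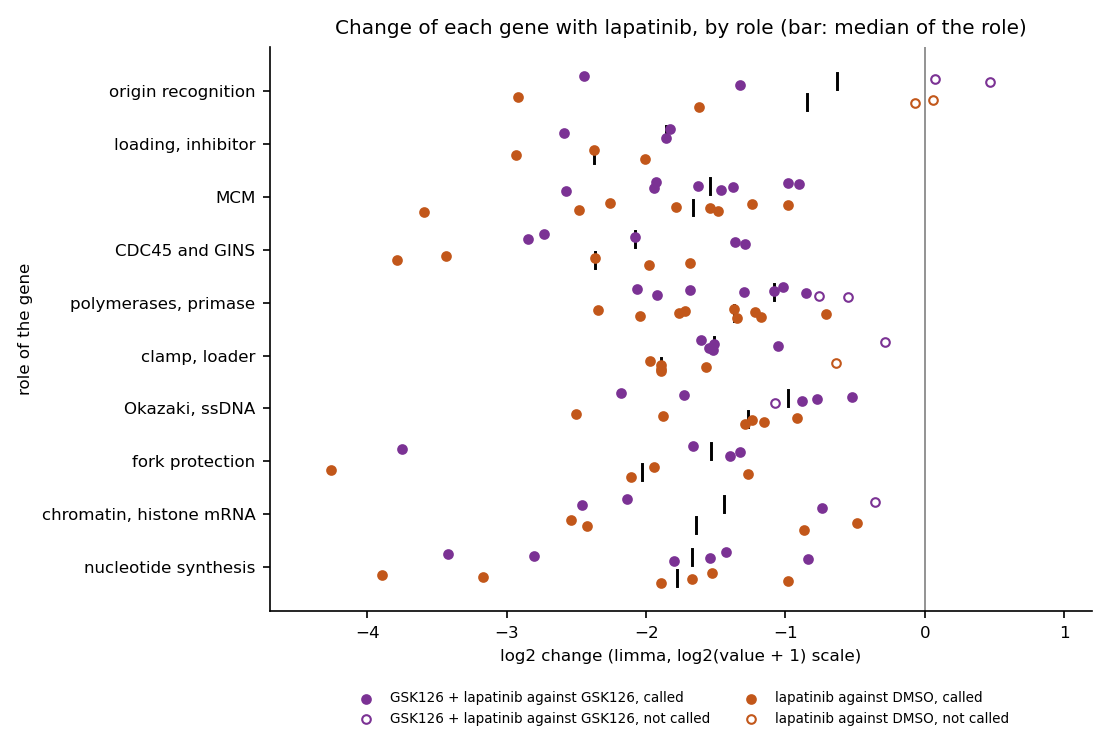
Each point is the log2 change of 1 gene, by role, for both drugs against GSK126 and for lapatinib against DMSO, with a bar at the median of the role. Filled points passed the test, and open points, such as ORC2, ORC3 and RFC1, did not.

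The promoter letters of a few of these genes are shown because the genes moved together and by unequal amounts. RefSeq promoter windows (build GRCh38.p14, not the hg19 build of the deposited counts; 250 bases before to 50 after a start) were matched by symbol for 48 of the 55 genes, in 62 windows, but not for MCM4, MCM5, GINS4, POLD3, RPA2, RPA3 and DNA2. They were searched on both strands for 4 spellings of the E2F motif, TTTCCCGC, TTTGGCGC, TTTGCCGC and TTTCGCGC, for the CCAAT box bound by NF-Y, and for the cell cycle homology region (CHR) in the spellings TTTGAA and TTCGAA. An E2F spelling was present in 23 of the 48 genes (47.9%), against 6.47% of the 10220 tested genes with a window, and in 37.1% of the 62 windows, against 3.31% of all 35116. CCAAT was present in 64.6% of the 48 genes, against 42.6% of the tested genes, and in 58.1% of the windows, against 34.6% of all. The CHR letters were present in 10.4% of the 48 genes, against 15.2% of the tested genes, and in 8.06% of the windows, against 16.4% of all. The median change with lapatinib was -2.00 over the 23 genes with an E2F spelling and -1.72 over the 25 without, and -1.89 both with and without CCAAT (31 and 17 genes). It was -1.54 over the 5 genes with the CHR letters and -1.89 over the 43 without.

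The 250 bases before the start follow for CLSPN (chr1:35769979-35770228, minus strand), GINS2 (chr16:85688955-85689204, minus strand) and MCM10 (chr10:13161308-13161557, plus strand), which fell furthest among genes with 1 window, for MCM6 (chr2:135876444-135876693, minus strand), which held the most E2F matches, and for ORC3 (chr6:87589885-87590134, plus strand) and ORC2 (chr2:200963661-200963910, minus strand), which changed least. Capitals mark E2F spellings and the CCAAT box on either strand, and overlapping matches run together.
CLSPN: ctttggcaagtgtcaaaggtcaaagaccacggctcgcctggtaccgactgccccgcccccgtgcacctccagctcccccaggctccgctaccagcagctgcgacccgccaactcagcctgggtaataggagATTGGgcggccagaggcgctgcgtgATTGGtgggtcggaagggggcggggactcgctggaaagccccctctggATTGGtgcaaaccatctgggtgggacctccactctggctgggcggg
GINS2: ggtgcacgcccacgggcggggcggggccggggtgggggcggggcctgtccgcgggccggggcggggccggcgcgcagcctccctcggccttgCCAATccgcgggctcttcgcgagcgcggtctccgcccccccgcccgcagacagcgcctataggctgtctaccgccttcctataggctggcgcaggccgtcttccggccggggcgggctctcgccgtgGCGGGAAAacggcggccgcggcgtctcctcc
MCM10: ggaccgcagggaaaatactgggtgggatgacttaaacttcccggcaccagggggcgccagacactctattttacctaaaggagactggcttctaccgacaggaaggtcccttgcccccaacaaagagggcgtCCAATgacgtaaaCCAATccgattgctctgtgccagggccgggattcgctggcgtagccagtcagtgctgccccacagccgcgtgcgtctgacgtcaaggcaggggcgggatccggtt
MCM6: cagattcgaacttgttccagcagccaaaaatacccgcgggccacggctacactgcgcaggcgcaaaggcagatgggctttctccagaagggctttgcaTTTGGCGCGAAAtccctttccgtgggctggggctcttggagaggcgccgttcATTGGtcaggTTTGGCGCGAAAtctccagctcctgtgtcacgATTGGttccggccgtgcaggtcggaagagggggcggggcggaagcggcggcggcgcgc
ORC3: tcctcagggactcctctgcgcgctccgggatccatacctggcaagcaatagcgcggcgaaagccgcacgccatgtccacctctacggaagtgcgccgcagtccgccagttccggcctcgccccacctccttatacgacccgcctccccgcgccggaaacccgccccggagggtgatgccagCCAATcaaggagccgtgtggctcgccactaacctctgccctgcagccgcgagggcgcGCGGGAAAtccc
ORC2: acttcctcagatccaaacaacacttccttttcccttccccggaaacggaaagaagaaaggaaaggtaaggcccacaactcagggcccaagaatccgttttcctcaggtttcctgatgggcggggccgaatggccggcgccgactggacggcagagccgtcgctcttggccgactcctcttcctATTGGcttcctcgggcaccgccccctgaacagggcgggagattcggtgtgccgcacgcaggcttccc
The stretches shown held 0 E2F matches and 3 CCAAT boxes for CLSPN, 1 and 1 for GINS2, 0 and 2 for MCM10, 4 and 2 for MCM6, 1 and 1 for ORC3, and 0 and 1 for ORC2. The full window of CLSPN held 1 E2F spelling, beyond the stretch shown. Those of GINS2 and ORC3 also held 1, that of MCM6 held 4, and those of MCM10 and ORC2 held 0. Only these exact spellings were searched, so 0 matches does not mean that a site is absent. Any link between the spellings and the changes was not tested.

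GSK126 alone lowered a few of the genes, by small amounts. Of the 55, 8 fell and 0 rose against DMSO, where 3.93% of all tested genes fell and 10.7% rose. At an unadjusted p under 0.05 there were 23 of the 55, against 3719 of the 14179 tested genes. Of the 55 changes 52 were below 0, with a median of -0.35 against -0.04 over all tested genes. The genes took 0.492% to 0.567% of the gene reads in the GSK126 libraries, against 0.605% to 0.658% in the DMSO libraries. The median gene lay at -0.36, -0.32 and -0.44 in GSK126 libraries 1, 2 and 3 relative to the DMSO mean.

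The genes that fell with GSK126 were RFC2 (-0.71 ± 0.15, adjusted p = 0.00704), CDC6 (-0.54 ± 0.13, adjusted p = 0.0120), RFC4 (-0.54 ± 0.14, adjusted p = 0.0220), RPA2 (-0.45 ± 0.13, adjusted p = 0.0309), TK1 (-0.54 ± 0.16, adjusted p = 0.0362), PCNA (-0.40 ± 0.12, adjusted p = 0.0385), CDC45 (-0.54 ± 0.16, adjusted p = 0.0395) and RPA1 (-0.55 ± 0.17, adjusted p = 0.0425). They belong to the clamp and its loader, origin loading, RPA, nucleotide salvage and the helicase. Of the 8 MCM genes and of the 9 polymerase and primase genes 0 passed the test. Since only 3.93% of all tested genes fell, such a count does not set these roles apart. The MCM estimates were all below 0, from -0.35 to -0.12. RPA2, the middle subunit of RPA, had 1055, 974 and 973 in the GSK126 libraries, against 1386, 1317 and 1394 in the DMSO libraries, so that the groups did not overlap. RPA1, the large subunit, had 1705, 2634 and 2533 in the GSK126 libraries, against 2982, 3671 and 3239 in the DMSO libraries. In all 8 genes the GSK126 libraries lay below the DMSO libraries. This adds no support, since the test picked these genes on the same libraries. The 2 groups did not overlap in some genes that did not pass either, such as MCM2, MCM8 and POLE2. The share of all tested genes without overlap was not counted. The largest estimate, -0.90 ± 0.29 for POLE2, did not pass (adjusted p = 0.0565), with 133, 253 and 219 in the GSK126 libraries, against 333, 365 and 396 in the DMSO libraries. POLA1 (0.06 ± 0.25, adjusted p = 0.908), RFC1 (-0.06 ± 0.27, adjusted p = 0.921) and ORC2 (-0.03 ± 0.25, adjusted p = 0.958) had the largest p-values.

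The GSK126 group was the most variable of the 4, with a median SD on the log2 scale of 0.296 over the 55 genes, against 0.198 in the combination group, 0.0957 in the lapatinib group and 0.150 in the DMSO group. CLSPN (coefficient of variation 65.3%), RFC3 (53.6%), DNA2 (51.2%), PRIM1 (48.1%), RRM1 (47.1%) and RFC1 (45.6%) varied most in it. GSK126 library 1 was the lowest of its group for RFC3, DNA2 and PRIM1 and the highest for CLSPN, RRM1 and RFC1. All 12 libraries share 1 estimate of the spread, so a library of any group can move the calls. Without GSK126 library 1, 17 genes were called lower. Without DMSO library 3 there was 1, without DMSO library 1 or 2, lapatinib library 1 or 2 or combination library 2 there were 3, and without lapatinib library 3 there were 4. RFC2 was called with each of the 12 libraries left out, CDC6 with 11, RFC4 with 9, and the other 5 with 1 to 4. DESeq2 called 16, a fit of GSK126 and DMSO alone called 0, and scaling to the spike-ins called 0. The summed counts of 3 endothelial markers were 782.6 to 1070.4 with both drugs, 184.9 to 238.0 with lapatinib, 934 to 1559.9 with GSK126 and 206.0 to 266.8 with DMSO. CDH5 made up most of the sum in cells with GSK126, where VWF lay below its DMSO values and PECAM1 was near 0. The summed counts of 6 fibroblast markers were 70.4 to 172 with both drugs, 202 to 245 with lapatinib, 142 to 242 with GSK126 and 249 to 392 with DMSO, with COL1A2 at 0 in the GSK126 libraries. The part of both lists in these results was not tested.

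**Figure D4:**
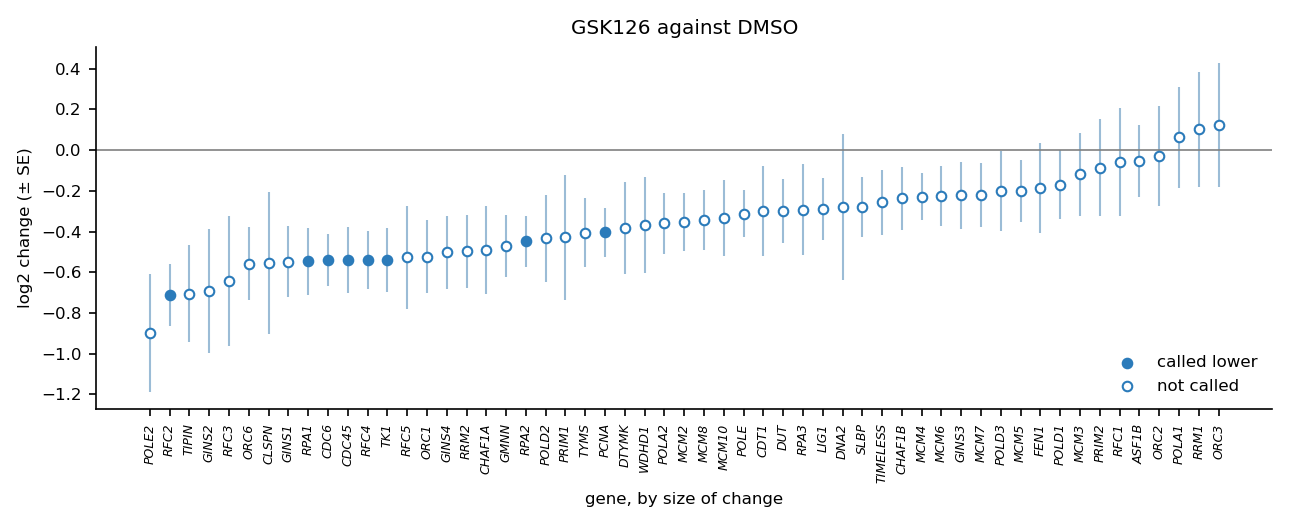
Points give the log2 change of each of the 55 genes for GSK126 against DMSO, with bars of 1 SE, ordered by size. Nearly all lie below 0, and the 8 filled points passed the test.

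In cells that had received GSK126, lapatinib again lowered most of the genes. Against GSK126 alone, 48 of the 55 fell with both drugs and 0 rose, where 9.71% of all tested genes fell and 8.48% rose. The median change was -1.51, against 0.04 over all tested genes, and it ran from -3.75 ± 0.35 for CLSPN to 0.46 ± 0.30 for ORC3. RRM2 (-3.42 ± 0.18, adjusted p = 3.36e-07), CDC45 (-2.73 ± 0.16, adjusted p = 4.36e-07) and TYMS (-2.81 ± 0.17, adjusted p = 4.80e-07) had the smallest p-values. The 7 genes that did not pass were ORC2, ORC3, RFC1, PRIM1, PRIM2, DNA2 and CHAF1B. The falls of RFC3 and RPA1 were lost with several libraries left out, RPA1 reaching an adjusted p of 0.128 without combination library 3.

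The response to lapatinib with GSK126 and the response without it share no library and can be set side by side. Over the 55 genes they correlated at r = 0.967 (rho = 0.952), a description across genes that share libraries and depth and are not independent replicates. In 52 of the 55 the change was less negative with GSK126 than without it. The share of all tested genes with such a difference was not counted. The 55 genes share their libraries, so the 52 are not separate observations. The test of the difference between the responses with and without GSK126, the interaction, called 0 of the 55 in limma, edgeR and DESeq2 alike. Its median was 0.33 over the 55 genes, against 0.02 over all tested genes. It called 0.00705% of all tested genes lower and 0.0141% higher. At an unadjusted p under 0.05 there were 8 of the 55, against 836 of the 14179 tested genes. MCM10 (1.02 ± 0.26, adjusted p = 0.315), CDC45 (0.71 ± 0.23, adjusted p = 0.558) and CDC6 (0.55 ± 0.18, adjusted p = 0.596) had the smallest p-values, and for MCM8 (0.03 ± 0.21), ASF1B (-0.04 ± 0.25) and ORC2 (0.01 ± 0.35) the estimate was smaller than its error. With limma's array weights 23 of the 55 were called. A fit without GSK126 libraries 2 and 3 and combination library 1, which were grouped by their spike-in proportions, left GSK126 library 1 alone in its group. Its calls are therefore not given. Under spike-in scaling the median interaction of the 55 was -0.18, with a shift of -0.50 in all genes.

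**Figure D5:**
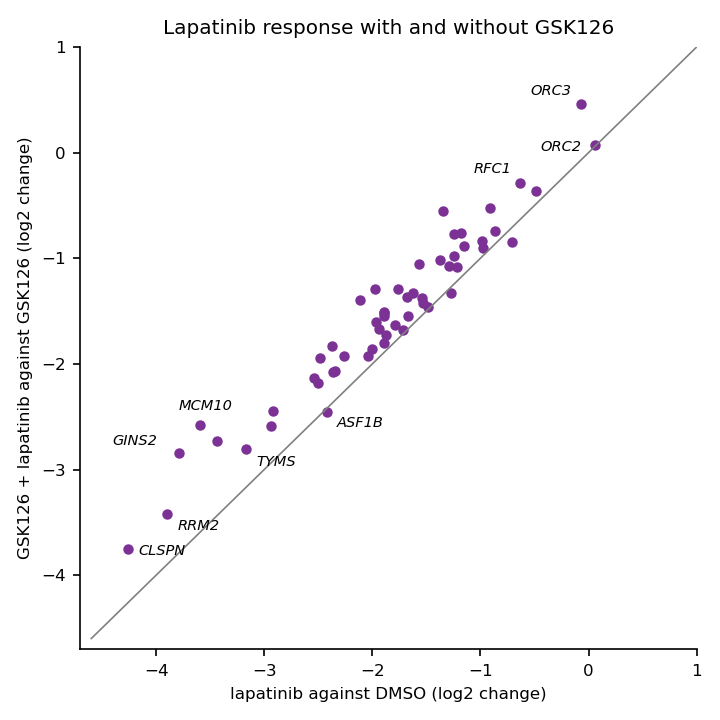
Each point is 1 of the 55 genes, with its log2 change for lapatinib against DMSO on the x axis and for both drugs against GSK126 on the y axis, and the line marks equal change. In 52 genes the point lies above the line, and ORC3, ORC2 and RFC1 lie at the upper end. The share of all tested genes above the line was not counted.

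With lapatinib present, adding GSK126 changed few of the genes beyond the spread between libraries. Against lapatinib alone 1 gene fell and 1 rose with both drugs, where 6.35% of all tested genes fell and 11.5% rose. At an unadjusted p under 0.05 there were 6 of the 55, against 4054 of the 14179 tested genes. POLE fell (-0.46 ± 0.11, adjusted p = 0.0137), with 1228, 1225 and 1252 in the combination libraries, against 1678, 1659 and 1746 in the lapatinib libraries. MCM10 rose (0.69 ± 0.19, adjusted p = 0.0214), with 131, 122 and 113 in the combination libraries, against 68.5, 66.0 and 93.8 in the lapatinib libraries. Neither gene overlapped between these groups, which adds no support, since the test picked both genes on the same libraries. MCM10 with both drugs was still at 13.2% of its DMSO mean. PRIM2 came next (0.71 ± 0.24, adjusted p = 0.0568), with every combination library above every lapatinib library. The median over the 55 was -0.05, against -0.03 over all tested genes. CDC6 (0.01 ± 0.13), PRIM1 (-0.01 ± 0.31) and TIPIN (0.01 ± 0.24) had the largest p-values.

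These 2 calls rest on few libraries. POLE was lost without lapatinib library 3 (adjusted p = 0.0654) and without lapatinib library 1 or 2 or combination library 2, and MCM10 without lapatinib library 2 (adjusted p = 0.102) and without lapatinib library 1 or combination library 1 or 2. Without lapatinib library 1 or 2 or combination library 2 there was no call, without lapatinib library 3 there were 0 lower and 1 higher, and without combination library 1 there were 2 lower and 0 higher. Without GSK126 library 1 or 2, 2 were called lower and 2 higher. A fit of these 2 groups alone called 6 lower and 5 higher, and spike-in scaling called 0 in each direction.

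Against DMSO, both drugs together lowered 52 of the 55 genes and raised 0, where 20.1% of all tested genes fell and 22.0% rose. The median was -1.89, against 0.06 over all tested genes, with 49 genes at least 2-fold and 27 at least 4-fold lower. The share of all tested genes called lower past these folds was not counted, and it cannot exceed 20.1%. The 55 genes took 0.195% to 0.206% of the gene reads of the combination libraries. RRM2 (-3.92 ± 0.18, adjusted p = 2.14e-08), CDC45 (-3.27 ± 0.16, adjusted p = 2.65e-08) and TYMS (-3.21 ± 0.17, adjusted p = 3.72e-08) had the smallest p-values, and CLSPN (-4.30 ± 0.35) changed most. ORC2 (0.05 ± 0.25, adjusted p = 0.899), RFC1 (-0.35 ± 0.27, adjusted p = 0.319) and ORC3 (0.59 ± 0.30, adjusted p = 0.140) did not pass. This comparison shares its DMSO libraries with lapatinib against DMSO. For TK1 the change was -2.08 ± 0.16 with both drugs and -1.67 ± 0.16 with lapatinib alone, and for MCM7 -2.17 ± 0.16 with both drugs and -2.48 ± 0.16 with lapatinib alone. Tested between the combination and lapatinib groups, the difference did not pass for either gene (-0.41 ± 0.16, adjusted p = 0.0950 for TK1 and 0.31 ± 0.16, adjusted p = 0.219 for MCM7). The fall of PRIM2 (-0.64 ± 0.24, adjusted p = 0.0468) was lost in 8 of the 12 fits that left out 1 library, with an adjusted p of 0.152 without DMSO library 3.

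Other genes of the same pathways, a list of 61 of which 61 were tested, had 37 lower and 0 higher with lapatinib (14.3% and 13.7% of all tested genes) and a median of -0.76, while 24 did not pass. Fork, clamp loading and Okazaki fragment genes had 10 of 14 lower, licensing and firing genes 9 of 12, chromatin genes behind the fork 5 of 7, and the nucleotide and folate genes 13 of 28. DSCC1, a subunit of an alternative clamp loader (-2.95 ± 0.14, adjusted p = 7.06e-08) and TICRR, which helps origins fire (-2.91 ± 0.22, adjusted p = 1.35e-06), were among those that fell. ORC4 (-0.05 ± 0.21, adjusted p = 0.887) and ORC5 (-0.30 ± 0.15, adjusted p = 0.164), the remaining core subunits of the origin recognition complex, did not pass. RRM2B (0.33 ± 0.24, adjusted p = 0.330), the form of the small ribonucleotide reductase subunit known from quiescent and damaged cells, did not pass either.

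With GSK126 alone 7 of the 61 fell and 0 rose (3.93% and 10.7% of all tested genes). The nucleotide and folate genes, 28 of the 61, held 6 of the 7, and this share was not tested. They were SHMT2 (-0.62 ± 0.13), SHMT1 (-0.78 ± 0.19) and MTHFD2 (-0.61 ± 0.16), enzymes of serine-derived folate metabolism, IMPDH1 (-0.52 ± 0.15) and GART (-0.46 ± 0.14) of purine synthesis, and DHODH (-0.51 ± 0.15) of pyrimidine synthesis. The seventh was KIAA0101 (-0.45 ± 0.14), the PCNA-associated factor. Both drugs against lapatinib lowered 6 of the 61, a count near the share over all tested genes (6.35%), namely MTHFD2, IMPDH1, SHMT1, SHMT2, KIAA0101 and CAD, and raised 1 (11.5% of all tested genes), RNASEH2B (1.25 ± 0.23, adjusted p = 0.00195). MTHFD2, the mitochondrial folate enzyme, had 2915, 2982 and 2617 in the combination libraries, 5897, 5789.8 and 5905 in the lapatinib libraries, 2771, 4164 and 3966 in the GSK126 libraries and 4837, 5694 and 5937 in the DMSO libraries. It did not pass with lapatinib alone (0.10 ± 0.16, adjusted p = 0.667) and fell with both drugs against lapatinib (-1.05 ± 0.16, adjusted p = 0.000415). Both drugs against GSK126 lowered 25 of the 61 and raised 0 (9.71% and 8.48% of all tested genes), and both drugs against DMSO lowered 40 and raised 1 (20.1% and 22.0% of all tested genes), POLD4 (0.86 ± 0.30, adjusted p = 0.0349).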

How the data were processed

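Messenger RNA was measured in 12 libraries of SKBR3 cells. Reads were aligned with STAR to hg19 and normalized with DESeq2, per the submitters' processing notes. The counter, the annotation and the use of strand are not given in the sources used here. In the deposited table each value is a signal, the read count of a gene divided by the size factor of its library. All of them (100%) came out as whole reads within 0.01, so the reads could be recovered, and the table held 0 columns left unused. Values of genes that overlap or have close copies may share reads.

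From these values log2(value + 1) was tested with limma 3.58.1 in R 4.3.3 for genes with at least 10 in at least 3 libraries. The fit held all 12 libraries, a mean for each of 4 groups (8 residual degrees of freedom) and a trended prior, with Benjamini-Hochberg adjustment over the 14179 genes and a threshold of 0.05, in 6 comparisons. The 86 spike-ins stayed out. The procedure was tested on simulated data in which every group had the spread of the DMSO libraries. That test does not cover the unequal spread of the groups. Over all tested genes the median SD on the log2 scale was 0.432 with GSK126, against 0.243 with DMSO. Alternatives were a pseudocount of 0.5 or 5, a filter of 50 or none, TMM, upper quartile, total count and spike-in scaling, a constant prior, a block for the replicate number, fits without the groups not compared, array weights, edgeR 4.0.16 and DESeq2 1.42.0 on the recovered reads, and leaving out each library or the 3 libraries of the second spike-in composition.

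The 55 genes, the list of 61 and the tests were chosen with earlier results of these data known. The rule for values in every library took the 3 smallest and 3 largest p-values of each comparison, RRM1, RRM2, TYMS, TK1 and MCM2 to MCM7. ORC1, CDT1, POLE2, PCNA, FEN1, DNA2, CLSPN, TIMELESS, CHAF1A, CHAF1B, GINS2, RPA1, RPA2 and MTHFD2 were added after their values were seen. Promoter sequences are from RefSeq. Levels were not compared between genes, since no length entered the values.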

Additional observations from a re-analysis of the deposited data

How the results depend on the processing

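Counts for the 3 comparisons in which lapatinib was added or in which both drugs were set against DMSO moved by less than 1.5 times, except under the settings named here. The counts for GSK126 alone and for GSK126 added to lapatinib moved under more settings, and the interaction moved from 0 to 23 under array weights. Where a count moved by over 1.5 times the cause was not tested. Leaving out each library gave 50 to 53 genes lower for lapatinib against DMSO, 1 to 17 for GSK126 against DMSO, 51 to 52 for both drugs against DMSO and 45 to 51 for both drugs against GSK126, and 0 to 2 lower and 0 to 2 higher for both drugs against lapatinib, while the interaction stayed at 0. For GSK126 against DMSO (8 lower, 0 higher as reported) no filter gave 4 genes lower, total count scaling 2, spike-in scaling 0, a fit of only the groups compared 0, array weights 28 and DESeq2 16. The fit without the 3 libraries of the second spike-in composition left GSK126 library 1 alone in its group. Its call counts for comparisons with that group are therefore not given. For both drugs against lapatinib (1 lower, 1 higher) upper quartile scaling gave 2 higher, total count scaling 0 lower, spike-in scaling 0 lower and 0 higher, only the groups compared 6 lower and 5 higher, array weights 11 lower and 9 higher, DESeq2 2 higher, and leaving out those 3 libraries 4 lower and 3 higher. Array weights called 1 gene higher for both drugs against DMSO, 1 for both drugs against GSK126 and 23 in the interaction. In GSK126 against DMSO RRM1 changed sign with a call under array weights (-0.58, adjusted p = 0.0486). Without those 3 libraries the estimate of RFC1 changed sign too (0.64), but it rests on GSK126 library 1 alone. The replicate numbers did not pair the libraries, since only 4 of 18 same-numbered pairs had deviations that correlated above 0.1 (r from -0.334 to 0.352, median -0.0724). Some pairs with unlike numbers correlated more strongly. GSK126 library 1 with combination library 3 had r = 0.440, and GSK126 library 2 with combination library 3 had r = -0.483. What such libraries share across the groups was not tested. With the replicate number as a block, 3 genes were called lower for GSK126 against DMSO. TIPIN and POLE2 were among the genes with few reads, and the part of depth in their results was not tested.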
